A study of Mus musculus with 10 samples.

Results

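The genes described here encode the respiratory chain, the ATP synthase and their mobile carrier cytochrome c. They were chosen by symbol from the array's probe annotation: names that begin with Nduf, Uqcr or Atp5, the numbered Cox subunit genes, Cycs, Cyc1 and the 4 succinate dehydrogenase genes. The rule gave 81 genes, measured by 85 probes, of 18300 genes with a symbol on the array. Complex I had 33 genes (6 core subunits, 25 accessory subunits and 2 assembly factors), complex II had 4, complex III had 8, complex IV had 18 and complex V had 16. Cytochrome c (Cycs) stood alone. Emc8, once called Cox4nb, was caught by its older symbol only and encodes a subunit of a membrane protein complex of the endoplasmic reticulum. It is reported apart from the complexes. Dmac2l, also caught by its older symbol only, was counted in complex V as an associated factor and not as a subunit. Ndufa4 was counted in complex IV, where its product is now placed, although it was once assigned to complex I.

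Complexes I and II feed electrons from NADH and succinate into ubiquinone, complex III passes them to cytochrome c, and complex IV hands them to oxygen. Complexes I, III and IV pump protons out of the mitochondrial matrix, and complex V, the ATP synthase, lets them return through its rotor to make ATP. Resting B cells are small and quiescent, and activation through the B cell receptor starts a programme of growth in which mitochondrial respiration is known to increase.

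The data were ratios from 10 oligonucleotide arrays with a red and a green channel, in 5 comparisons of 2 arrays each, with the dyes exchanged within each pair. RNA came from splenic B cells of female mice aged 2 months, isolated with a magnetic kit and cultured in IMDM medium. The mice were labelled Ptger4+/+ or Ptger4-/-. Ptger4 encodes EP4, a receptor for prostaglandin E2 (PGE2) that raises cyclic AMP. In each genotype, cells given F(ab')2 fragments of an antibody to IgM for 2 h, which engage the B cell receptor, were set against cells in medium alone for 2 h. Also in each genotype, cells given anti-IgM together with PGE2 for 24 h were set against cells given anti-IgM alone for 24 h. A last pair of arrays held the direct genotype comparison, in which RNA labelled Ptger4-/- and Ptger4+/+ RNA, each from cells given anti-IgM and PGE2 for 24 h, were hybridised together. The sources used here do not give how the allele was made, how many mice were pooled, or whether the arrays of a pair held the same RNA extracts. The p-values may therefore measure technical spread only.

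Each array's median over all probes lay between 0.000895 and 0.0148. The values were read as log2 ratios of Cy5 over Cy3. Neither the base nor the direction was given. With natural logs every log2 value would be 1.44 times as large, and with the opposite direction every sign would turn. The direction used is likely from the immediate-early genes at 2 h: of 23, 7 were at least 2-fold higher on both arrays of Ptger4+/+ cells and 0 were at least 2-fold lower. The counts in cells labelled Ptger4-/- were 8 and 1. The probe for Ptger4 gave 0.46 and 0.52 on the arrays that set the genotypes against each other. Its signal was thus higher, not lower, in the RNA labelled Ptger4-/-. The place of this probe relative to the deleted part was not given, so it does not check the labels. Because the values are ratios, they carry no levels, and markers of B cells could not be used to check the cell type. The number of arrays limits the precision. In what follows, the error after ± is the standard error (SE) of the limma fit over all 10 arrays, and a gene rose or fell when its Benjamini-Hochberg adjusted p over 22533 features was below 0.05.

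Promoters of 5 members are shown, because 4 of these genes gave large falls with PGE2 without an outlying array in Ptger4+/+ cells and Cycs gave the largest rise at 2 h in those cells. They are from the RefSeq promoter table of build GRCm38.p6 and run from 250 bases before to 50 bases after the gene's start. Capitals mark the motifs searched on both strands: GCGCA, any base and GCGC for NRF1 (a nuclear respiratory factor), CCGGAAG for the ETS family, to which GABPA belongs, AAGATGGCG for YY1 and TGACGTCA for the cyclic AMP response element (CRE).

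Atp5pb promoter, chr3:105959214-105959513, strand minus: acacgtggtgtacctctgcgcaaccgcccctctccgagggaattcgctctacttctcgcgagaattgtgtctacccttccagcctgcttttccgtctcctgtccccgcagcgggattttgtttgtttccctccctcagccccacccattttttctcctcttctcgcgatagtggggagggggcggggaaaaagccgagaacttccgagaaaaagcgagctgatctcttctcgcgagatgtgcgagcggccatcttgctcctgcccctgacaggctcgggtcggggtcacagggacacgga

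Sdhb promoter, chr4:140961021-140961320, strand plus: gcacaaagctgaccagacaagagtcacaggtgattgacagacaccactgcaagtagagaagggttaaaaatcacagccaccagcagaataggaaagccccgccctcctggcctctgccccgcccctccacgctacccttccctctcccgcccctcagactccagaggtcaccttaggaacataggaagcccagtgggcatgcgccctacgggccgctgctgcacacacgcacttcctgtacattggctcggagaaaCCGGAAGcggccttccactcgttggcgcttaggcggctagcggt

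Ndufs3 promoter, chr2:90904672-90904971, strand minus: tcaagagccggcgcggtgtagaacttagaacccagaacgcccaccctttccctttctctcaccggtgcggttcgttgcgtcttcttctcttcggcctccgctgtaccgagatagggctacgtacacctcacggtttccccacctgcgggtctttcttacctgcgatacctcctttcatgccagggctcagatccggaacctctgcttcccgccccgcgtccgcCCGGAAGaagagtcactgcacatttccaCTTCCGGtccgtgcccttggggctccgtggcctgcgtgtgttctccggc

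Atp5o promoter, chr16:91931581-91931880, strand minus: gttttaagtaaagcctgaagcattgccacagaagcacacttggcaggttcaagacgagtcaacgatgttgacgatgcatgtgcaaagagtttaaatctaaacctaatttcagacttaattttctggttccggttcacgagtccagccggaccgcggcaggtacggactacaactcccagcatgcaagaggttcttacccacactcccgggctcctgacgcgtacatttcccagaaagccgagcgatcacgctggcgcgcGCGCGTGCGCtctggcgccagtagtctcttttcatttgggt

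Cycs promoter, chr6:50566520-50566819, strand minus: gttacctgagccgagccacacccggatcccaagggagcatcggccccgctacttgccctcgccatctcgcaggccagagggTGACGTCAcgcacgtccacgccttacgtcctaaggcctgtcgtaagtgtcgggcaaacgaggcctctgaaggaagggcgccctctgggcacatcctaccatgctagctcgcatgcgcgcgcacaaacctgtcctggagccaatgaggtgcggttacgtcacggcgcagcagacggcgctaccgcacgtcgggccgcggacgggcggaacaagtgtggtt

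The Sdhb promoter held 1 ETS motif, at base 7 from the start, and that of Ndufs3 held 2, at 27 bases before the start and at base 2. An NRF1 motif lay at base 10 from the start of Atp5o, and a CRE lay 169 bases before the start of Cycs. None of the 4 motifs was found in the Atp5pb window. Across the set, 66 of 81 members had a promoter in the table, and these had 71 promoters. The NRF1 motif was in 22.5% of members' promoters and in 4.6% of all 32851 promoters. The ETS motif was in 22.5% against 8.86%, the YY1 motif in 8.45% against 1.4%, and the CRE in 7.04% against 1.79%. Between the 40 promoters of members that fell with PGE2 in Ptger4+/+ cells and the 31 of the other members, the shares were 22.5% and 22.6% for NRF1, 22.5% and 22.6% for ETS, 5% and 12.9% for YY1, and 7.5% and 6.45% for the CRE. A match describes these letters and is not a binding site.

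The largest shift of the set within Ptger4+/+ cells came with PGE2 at 24 h. Of 81 members, 44 fell and 1 rose (limma), where 17.0% of all features fell and 9.11% rose. The median over the members was -0.24 on the log2 scale, against 0.01 over all features. A total of 72 members were below 0 in the mean and 58 were below 0 on both arrays, a pattern that 28.8% of all features showed. The count depended on the second array of the pair: without it 23 members fell and 0 rose, and without the first 39 fell and 3 rose. The plot of every member on every array shows this shift as blue columns for PGE2 in Ptger4+/+ cells and red columns where the genotypes were compared.

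**Figure D1:**
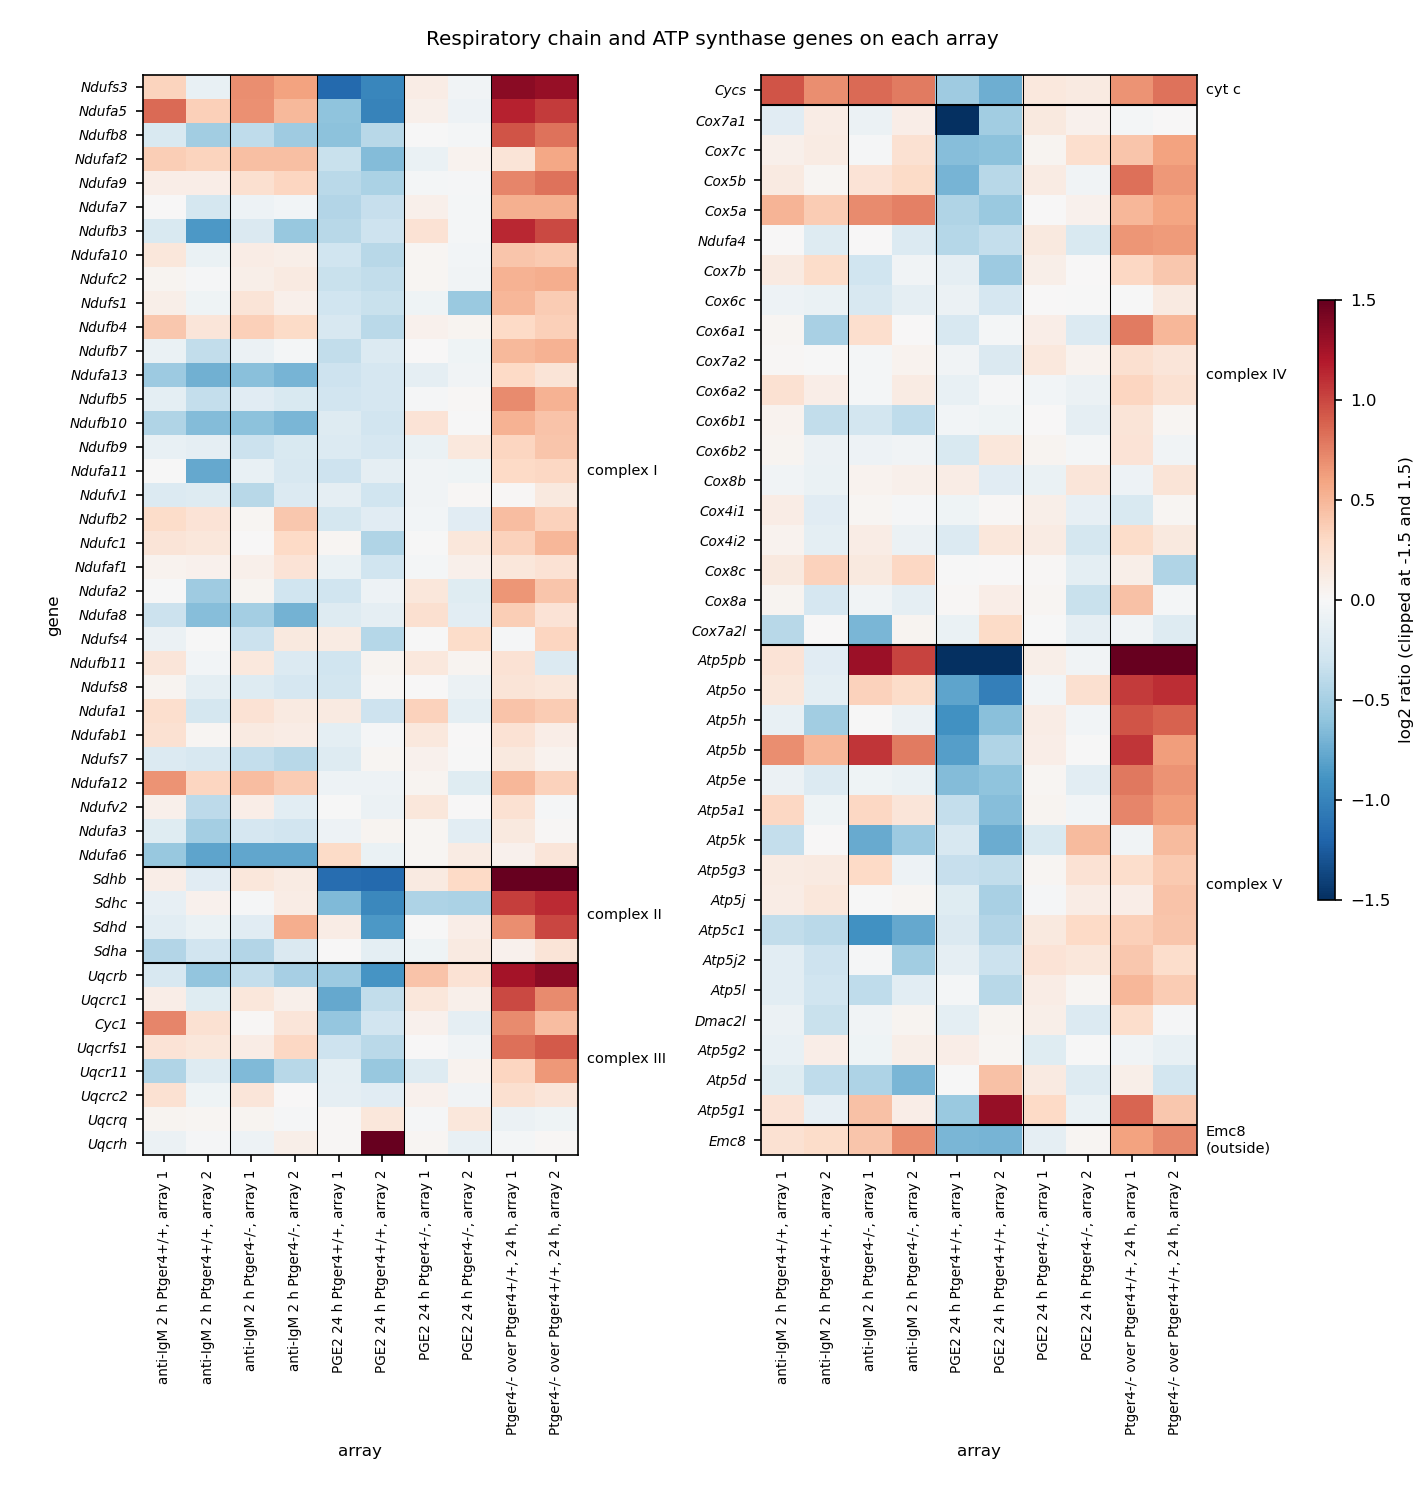
Log2 ratio of each of the 81 members (rows, grouped by complex) on each of the 10 arrays (columns, 2 per comparison), with red for higher and blue for lower in the numerator. Colours are clipped at -1.5 and 1.5. Most rows are blue on both arrays of PGE2 in Ptger4+/+ cells (58 of 81), pale with PGE2 in cells labelled Ptger4-/-, and red where cells labelled Ptger4-/- were set against Ptger4+/+ cells (64 of 81 on both arrays).

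In complex V, the associated factor Dmac2l included, 10 of 16 members fell with PGE2 in Ptger4+/+ cells and the median was -0.35. All 4 subunits of the peripheral stalk, which holds the catalytic head still against the rotor, were among them. Atp5pb, the stalk's subunit b, gave -1.49 and -1.53 on the arrays, a mean of -1.51 ± 0.08 or 2.85-fold lower (limma adjusted p = 6.48e-05). Its arrays differed by far less than the size of the change. Atp5o, which joins the stalk to the head, gave -0.79 and -1.03 (adjusted p = 0.000727 by limma). Atp5h, the stalk's subunit d, gave -0.90 and -0.62. Atp5j, its coupling factor, was the least changed of the stalk genes, at -0.18 and -0.49. Of the head itself, the catalytic subunit Atp5b gave -0.83 and -0.45, its partner Atp5a1 -0.36 and -0.64, and the small rotor subunit Atp5e -0.65 and -0.61. The central rotor shaft gene Atp5c1 fell less, with -0.21 and -0.44. Atp5d was the only member called higher, at -0.01 and 0.44 with a mean of 0.21 ± 0.05 (limma adjusted p = 0.0243). That call rested on 1 array and was lost without it (adjusted p = 0.309 by limma).

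Complex II, which also serves the tricarboxylic acid (TCA) cycle, had 2 of 4 genes lower and a median of -0.59. Sdhb, the iron-sulfur subunit, gave -1.15 and -1.17, or 2.23-fold lower (limma adjusted p = 0.000131). The membrane anchor Sdhc gave -0.66 and -0.96 (adjusted p = 0.000151 by limma). The other anchor, Sdhd, split between its arrays at 0.12 and -0.86 and did not pass. Sdha, the catalytic flavoprotein, gave 0.01 and -0.15 and did not pass. That value averages probes that disagreed, with 0.22 and 0.09 on one and -0.20 and -0.38 on the other.

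In complex I, 18 of 33 genes fell and 0 rose, with a median of -0.22. Among them were 3 of 6 core subunits, 13 of 25 accessory subunits and both assembly factors. Ndufs3, a core subunit of the arm that reaches into the matrix, gave -1.17 and -0.97, or 2.10-fold lower (limma adjusted p = 0.000105). Of the other core subunits, Ndufs1 and Ndufv1 fell by 0.32 and 0.22 on the log2 scale. Ndufs7, Ndufs8 and Ndufv2 did not pass, with means of -0.08, -0.13 and -0.05. Ndufa5, an accessory subunit, had a mean of -0.80 ± 0.13. Ndufb8, in the membrane arm, gave -0.62 and -0.41. The remaining falls in complex I lay between -0.49 for the assembly factor Ndufaf2 and -0.20 for the assembly factor Ndufaf1. For Ndufs1, 1 of its 2 probes gave -0.81 and -0.84 and the other 0.21 and 0.17, so its mean hides probes that disagree. The probes of Ndufa11, which did not pass, disagreed in the same way, with -0.79 and -0.57 on one and 0.16 and 0.31 on the other.

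In complex III, 5 of 8 genes fell and the median was -0.36. Uqcrb, a small subunit at the ubiquinone site, gave -0.55 and -0.89 (limma adjusted p = 0.0032). Uqcrc1, a core protein, gave -0.76 and -0.37, and Uqcrfs1, the Rieske iron-sulfur protein, -0.31 and -0.41. Cyc1, the cytochrome that passes electrons to cytochrome c, gave -0.58 and -0.28. Cycs itself fell on both arrays, with -0.53 and -0.73 (adjusted p = 0.00113 by limma). The hinge protein gene Uqcrh did not pass, at 0.02 and 2.40, 1 array alone being high.

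Complex IV was the least shifted by its median, at -0.10, with 7 of 18 genes lower. Cox7c, Cox5b and Cox5a, nuclear subunits around the catalytic core, gave means of -0.63, -0.56 and -0.50 and were lower on both arrays. Cox7a1, known as a heart and muscle isoform, had the largest mean fall of all members, -1.83 ± 0.46 (limma adjusted p = 0.0259), from arrays of -3.13 and -0.52. Its fitted value was -0.47 without the first array and -3.19 without the second. Cox7a1, Uqcrh and Atp5g1 were the only members whose arrays of this comparison differed by more than 1. Emc8, outside the complexes, gave -0.69 on both arrays, so a gene outside the chain was among the 10 largest falls.

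**Figure D2:**
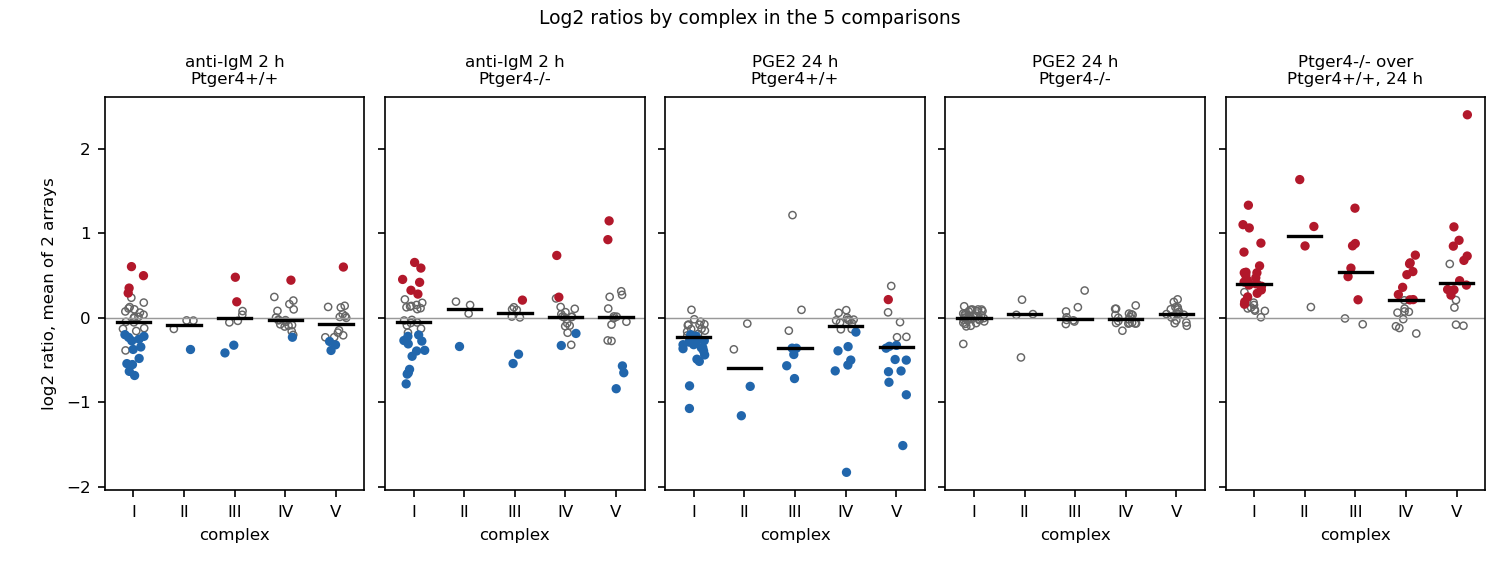
Log2 ratio of each member (mean of 2 arrays, vertical axis) by complex (horizontal axis) in the 5 comparisons. Red points rose and blue points fell by limma's adjusted p, open points did not pass, and bars are medians of a complex. With PGE2 in Ptger4+/+ cells the medians run from -0.59 in complex II to -0.10 in complex IV, and where the genotypes were compared from 0.96 in complex II to 0.21 in complex IV.

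With PGE2 in cells labelled Ptger4-/-, 0 of 81 members passed (limma), where 0.00888% of all features rose and 0.138% fell. At an unadjusted p below 0.05, 4 members were higher and 2 were lower. The members' median was 0.02 and their means lay between -0.47 and 0.32. Sdhc was the lowest, at -0.46 and -0.47 on the arrays (limma adjusted p = 0.0511), close to the limit. Ndufs1 followed at -0.06 and -0.56, and Uqcrb was the highest at 0.43 and 0.21. The arrays of Atp5pb were at 0.09 and -0.05 and those of Ndufs3 at 0.11 and -0.05, on either side of 0 for both genes.

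The difference between genotypes in the PGE2 response was tested in the same fit. It was positive for 29 members and negative for 0 (limma), against 9.33% and 3.33% of all features. A positive difference means a PGE2 ratio less negative in the cells labelled Ptger4-/-. By complex these were 9 of 33 in complex I, 2 of 4 in complex II, 4 of 8 in complex III, 4 of 18 in complex IV and 8 of 16 in complex V, with Cycs and Emc8 besides. The difference was 1.53 ± 0.11 for Atp5pb (limma adjusted p = 0.00055), 1.37 ± 0.11 for Sdhb and 1.10 ± 0.10 for Ndufs3. It was small for Sdhc, 0.34 ± 0.08 (adjusted p = 0.0367 by limma), which was lower with PGE2 on all 4 arrays. All 29 had fallen with PGE2 in Ptger4+/+ cells. The plot of both genotypes by array shows their values, and for Uqcr11 the arrays of the genotypes overlapped. Leaving out either array of PGE2 in cells labelled Ptger4-/- left 16 positive differences, and leaving out the second array of PGE2 in Ptger4+/+ cells left 19.

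**Figure D3:**
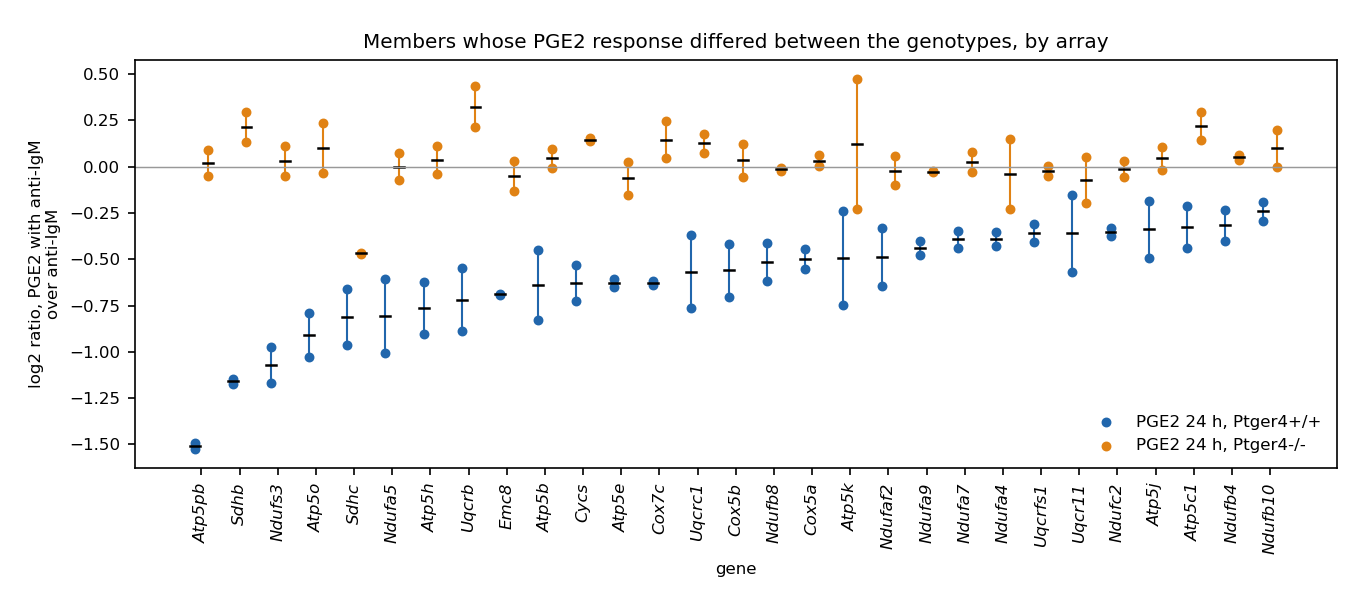
Log2 ratio of anti-IgM with PGE2 over anti-IgM alone at 24 h (vertical axis) on each array for the 29 members (horizontal axis) whose PGE2 response differed between genotypes. Points are arrays, black bars the means, blue for Ptger4+/+ and orange for cells labelled Ptger4-/-. The blue means run from -1.51 for Atp5pb to -0.24 for Ndufb10, and the orange means from -0.47 for Sdhc to 0.32 for Uqcrb.

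Where the genotypes were set against each other directly, with anti-IgM and PGE2 for 24 h, 54 of 81 members were higher in cells labelled Ptger4-/- and 0 were lower (limma; also 0 at an unadjusted p below 0.05), where 15.9% of all features were higher and 11.0% lower. The members' median was 0.39, against -0.000906 over all features. On both arrays 64 members were above 0, as 32.5% of all features were. This comparison and the PGE2 comparisons share the condition of anti-IgM with PGE2, and may share RNA, which the labels do not tell. The values between the genotypes are therefore given beside those with PGE2 and not as a separate line of evidence. Without the first of its arrays 33 members were higher and 1 was lower, and without the second 32 were higher and 0 lower. A total of 32 members passed whichever array was left out, Atp5pb, Sdhb, Ndufs3 and Uqcrb among them.

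Atp5pb differed most, at 2.38 and 2.42, which is 5.28-fold higher (limma adjusted p = 7.58e-06). Its stalk partners followed with means of 1.07 for Atp5o and 0.92 for Atp5h, and 0.27 for Atp5j. In the catalytic head, Atp5b gave 1.07 and 0.62, Atp5a1 0.73 and 0.62, and Atp5e 0.79 and 0.67. Sdhb gave 1.54 and 1.73, or 3.10-fold higher (adjusted p = 2.19e-05 by limma). Both membrane anchors of complex II were also higher, with 1.04 and 1.12 for Sdhc and 0.85 in the mean for Sdhd. Sdha, at 0.07 and 0.19, did not pass, and its probes again disagreed, with -0.21 and -0.07 on one and 0.34 and 0.45 on the other. In complex III, Uqcrb gave 1.24 and 1.35, Uqcrfs1 0.83 and 0.92, and Uqcrc1 0.99 and 0.71. Cyc1 had a mean of 0.59, and Cycs gave 0.67 and 0.82.

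In complex I, 23 of 33 genes were higher, 19 of them accessory subunits, and 30 were above 0 on both arrays. Ndufs3 gave 1.36 and 1.30, or 2.51-fold higher (limma adjusted p = 2.65e-05). Ndufa5 had a mean of 1.10, and Ndufb3 and Ndufb8, in the membrane arm, had means of 1.06 and 0.88. Of the 6 core subunits only Ndufs3 and Ndufs1 passed. Ndufs1 again rested on 1 probe, with 1.24 and 1.01 against -0.23 and -0.24 on the other. In complex IV, 9 of 18 genes were higher, led by Cox5b at 0.83 and 0.65 and by Ndufa4 at 0.66 and 0.64. Cox6a1, known as the widely expressed isoform of its subunit, gave 0.78 and 0.49, although its PGE2 ratio in Ptger4+/+ cells, at -0.24 and -0.03, had not passed. Cox7a1 gave -0.03 and 0.00 here, and Uqcrh -0.03 and 0.01, so neither extreme array of the PGE2 comparison had a counterpart between the genotypes.

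No array compared the genotypes with anti-IgM alone at 24 h, but the 3 comparisons at 24 h can be chained to it, with no test. The chained ratio of cells labelled Ptger4-/- over Ptger4+/+ was above 0 for 58 of 81 members, with a median of 0.13 and a middle range from -0.03 to 0.26. Over all features it was above 0 for 11785 of 22533, with a median of 0.01. Atp5pb had a chained ratio of 0.87, Sdhc 0.74 and Ndufb3 0.60. The highest and the lowest chained values, 1.25 for Uqcrh and -1.95 for Cox7a1, carry the single outlying arrays described above.

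At 2 h the response to anti-IgM was mixed within the set. In Ptger4+/+ cells 10 of 81 members rose and 19 fell by limma, where 9.71% and 11.4% of all features did, and the members' median was -0.03. In cells labelled Ptger4-/- 13 rose and 20 fell, where 11.6% and 11.7% of all features did, and the median was 0.01. The rises were thus close to the background share and the falls above it. Leaving out the second Ptger4+/+ array left 9 rises and 10 falls in those cells. The falls were mostly in complex I, with 12 of 33 genes in either genotype. Complex IV changed least, with 1 rise and 1 fall in Ptger4+/+ cells and 2 of each in cells labelled Ptger4-/-.

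Cycs rose most in Ptger4+/+ cells, at 0.94 and 0.70, a mean of 0.82 ± 0.08 (limma adjusted p = 0.000213), and gave 0.85 and 0.78 in cells labelled Ptger4-/-. Its arrays overlapped between the genotypes. The catalytic Atp5b gave 0.70 and 0.50 in Ptger4+/+ cells and 1.07 and 0.78 in cells labelled Ptger4-/-. Cox5a rose in both, with means of 0.44 and 0.74. In complex I the rises were Ndufa5, with means of 0.60 and 0.59, Ndufa12 with 0.50 and 0.42, the assembly factor Ndufaf2 with 0.35 and 0.45 and Ndufb4 with 0.29 and 0.33. The Rieske protein gene Uqcrfs1 rose by 0.19 and 0.21, near the limit (limma adjusted p = 0.0477 and 0.0291). Without the dye term it passed in neither genotype (limma adjusted p = 0.129 and 0.0809). Emc8 rose by 0.25 and 0.55. Cyc1 passed in Ptger4+/+ cells only, at 0.73 and 0.23 on the arrays there and 0.01 and 0.19 in the cells labelled Ptger4-/-, and the difference did not pass.

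The falls at 2 h included many accessory subunits of complex I, while the largest in cells labelled Ptger4-/- was that of Atp5c1, an ATP synthase subunit. Ndufa6 gave -0.57 and -0.80 in Ptger4+/+ cells and -0.78 on both arrays of cells labelled Ptger4-/-. Ndufa13 gave -0.55 and -0.72, then -0.63 and -0.70, and Ndufb10 -0.45 and -0.66, then -0.61 and -0.69. Ndufa8 had means of -0.48 and -0.61. Outside complex I the falls included Sdha, with means of -0.37 and -0.33, and Uqcrb, with -0.42 and -0.43. Uqcr11, a small complex III subunit, had means of -0.32 and -0.54. Other complex I falls shared by the genotypes were Ndufb3, with means of -0.54 and -0.39, Ndufb8, with -0.37 and -0.45, and Ndufa3, with -0.35 and -0.27. Of the ATP synthase, Atp5c1 fell in both, by 0.39 and 0.84, and Atp5d by 0.28 and 0.57, and Atp5k, of the membrane part, passed in cells labelled Ptger4-/- only, at -0.75 and -0.54 against -0.35 and 0.00, a difference that did not pass. For Sdha, 1 probe gave -0.59 and -0.65 in Ptger4+/+ cells and the other -0.29 and 0.06.

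The genotypes shared most of these changes at 2 h, on arrays with no sample in common. The 9 shared rises were 90% of those in Ptger4+/+ cells and 69.2% of those in cells labelled Ptger4-/-. The 15 shared falls were 78.9% and 75%, and 0 members moved in opposite directions. Over the 81 genes the mean ratios of the genotypes had a Pearson correlation of 0.82 and a Spearman correlation of 0.84. These describe genes, which are not independent replicates. Neither the overlaps nor the correlations were computed over all features, so they are not shown to be particular to this set.

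The response to anti-IgM differed between genotypes for 3 members (limma), 2 higher and 1 lower in the cells labelled Ptger4-/-, where 1.13% and 0.608% of all features were. Atp5pb gave 0.20 and -0.17 in Ptger4+/+ cells and 1.28 and 1.01 in cells labelled Ptger4-/-, with no overlap (adjusted p = 0.0149 by limma). Ndufs3 gave 0.33 and -0.11 against 0.70 and 0.61, a difference of 0.54 ± 0.10 (limma adjusted p = 0.0469). Atp5c1 fell further in cells labelled Ptger4-/-, at -0.91 and -0.77 against -0.37 and -0.40, a difference of -0.45 ± 0.07 (adjusted p = 0.0391 by limma). Each of the 3 lost its call when some array was left out. Without the second array of Ptger4+/+ cells, or without the first of cells labelled Ptger4-/-, 0 members differed.

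**Figure D4:**
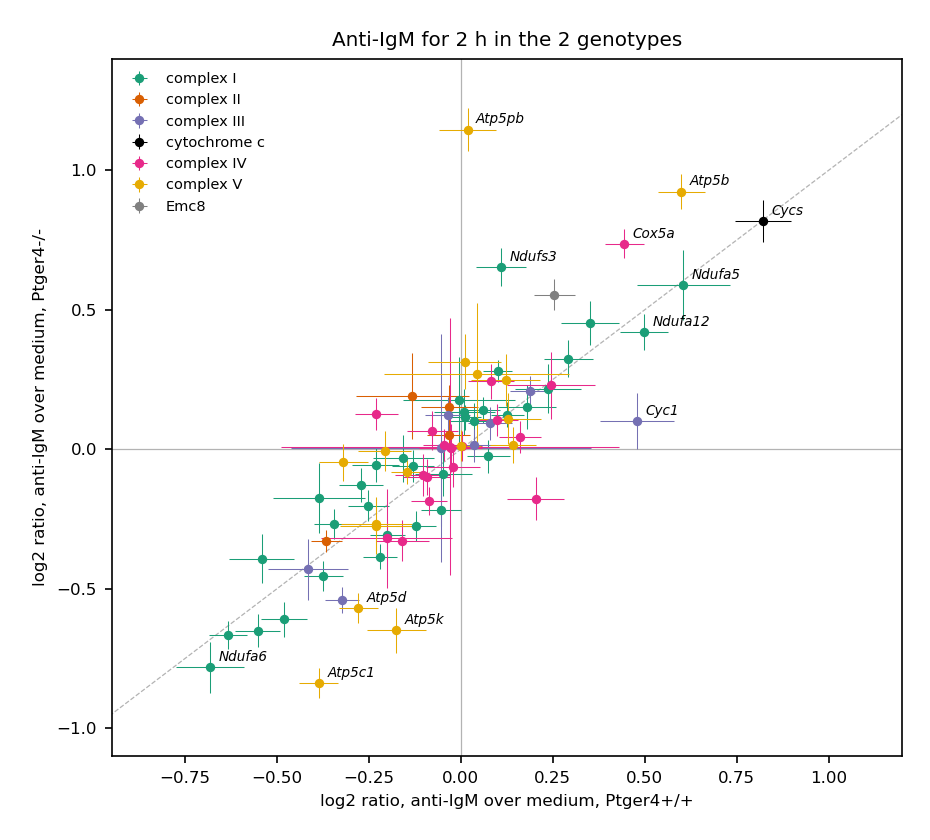
Log2 ratio of anti-IgM over medium at 2 h in Ptger4+/+ cells (horizontal axis) and in cells labelled Ptger4-/- (vertical axis) for the 81 members, coloured by complex. Points are means of 2 arrays, bars the SE of the fit, and the broken line marks equal ratios. Most genes lie near the line, Cycs at 0.82 on both axes, while Atp5pb lies far above it at 0.02 and 1.15.

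The changes at 2 h can be set beside the falls with PGE2 at 24 h, which took in 44 of all 81 members (54.3%). Of the 10 that rose in Ptger4+/+ cells, 9 (90%) were among the 44 that fell with PGE2 there, all but Ndufa12. They made up 20.5% of the 44 and included Emc8, which lies outside the chain. Of the 19 that fell at 2 h, 11 (57.9%) were among the same 44, or 25% of them, a share near that of all members. The arrays at 2 h and at 24 h held no common sample by their labels. The same overlap over all features was not counted, so it is not shown to be particular to this set.

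Several subunits come in tissue isoforms, and these were compared by their ratios only, since levels were not measured. Cox4i1, the general form of subunit 4, stayed between -0.23 and 0.11 on all 10 arrays and passed in no comparison. Cox4i2, known from lung, passed once, between the genotypes, at 0.28 and 0.15. Cox6a1 was called lower at 2 h in Ptger4+/+ cells (limma adjusted p = 0.0277), but its arrays, 0.02 and -0.48, differed in sign. Without the dye term it did not pass (limma adjusted p = 0.498). Cox6a2, the heart and muscle form, was at 0.23 and 0.10 in that comparison and did not pass. Between the genotypes both were higher, with means of 0.64 and 0.27. Cox6b1 fell at 2 h in cells labelled Ptger4-/- by 0.33 in the mean, and Cox6b2, known from testis, passed in no comparison. Cox7a2 was higher between the genotypes by 0.21 and its relative Cox7a2l, known to join complexes III and IV, passed nowhere. Cox8a, Cox8b and Cox8c passed in no comparison either. The proton-carrying ring of the ATP synthase is built from a subunit c encoded by 3 genes. Atp5g3 fell with PGE2 in Ptger4+/+ cells, at -0.35 and -0.37, and was higher between the genotypes, at 0.27 and 0.40. Atp5g2 lay between -0.18 and 0.11 on all 10 arrays, and Atp5g1, at -0.55 and 1.31 with PGE2, could not be given a direction there.

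Other genes of mitochondrial energy supply were read from lists made with earlier results of these data known. For comparison, with PGE2 in Ptger4+/+ cells 17.0% of all features fell and 9.11% rose. Between the genotypes 15.9% of them were higher and 11.0% lower. With anti-IgM at 2 h, 9.71% rose and 11.4% fell in Ptger4+/+ cells, and 11.6% and 11.7% in cells labelled Ptger4-/-. Of 17 TCA cycle and pyruvate dehydrogenase genes, 11 fell and 0 rose with PGE2 in Ptger4+/+ cells, and 8 were higher and 0 lower between the genotypes. Dld, the E3 subunit that the pyruvate and oxoglutarate dehydrogenases share, fell by 1.55 with PGE2 on the log2 scale and was 1.95 higher between the genotypes. Ogdh, of the oxoglutarate dehydrogenase, fell by 0.67. At 2 h the same list had 6 rises and 3 falls in Ptger4+/+ cells, and 8 and 4 in cells labelled Ptger4-/-. Dlat, of pyruvate dehydrogenase, rose by 0.30 and 0.56, and Idh2, an isocitrate dehydrogenase, changed by -0.39 and -0.48.

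Of 36 assembly factors outside the symbol rule, 19 fell and 0 rose with PGE2 in Ptger4+/+ cells, and 20 were higher and 1 lower between the genotypes. Tmem70, which helps to assemble the ATP synthase, fell by 1.14, and Lrpprc, which stabilises mitochondrial messenger RNAs, fell by 0.71. Cox10, which makes the haem of complex IV, was 0.71 higher between the genotypes, and Bcs1l, which inserts the Rieske protein, 0.85 higher. At 2 h this list had 8 rises (22.2%) and 5 falls (13.9%) in Ptger4+/+ cells, the falls near the share of all features. In cells labelled Ptger4-/- it had 11 rises and 9 falls. Coa3, a complex IV assembly factor, had ratios of -0.75 and -0.91, and Uqcc3, of complex III, -1.35 and -1.39. Of 13 genes for the upkeep and transcription of mitochondrial DNA, 5 fell with PGE2 and 5 were higher between the genotypes, with 0 in the opposite direction. The exonuclease gene Mgme1 had ratios of -0.54 and 0.75 in these comparisons, and the transcription regulator gene Mterf3 -0.61 and 0.49. At 2 h there were 3 rises and 3 falls in Ptger4+/+ cells and 3 and 2 in cells labelled Ptger4-/-, with the mitochondrial topoisomerase gene Top1mt up by 0.53 and 0.76.

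Among 8 genes for the ATP synthase inhibitor and the carriers that exchange ATP, ADP and phosphate, 5 fell and 0 rose with PGE2 in Ptger4+/+ cells, and 5 were higher between the genotypes. Slc25a3, the mitochondrial phosphate carrier, fell by 1.84 on the log2 scale with PGE2 and was 2.74 higher between the genotypes. It went further than any member in both cases, although Cox7a1, with its outlying array, was nearly as low with PGE2 at -1.83. The PGE2 response of Slc25a3 differed between genotypes by 2.03 ± 0.14. At 2 h, 2 of the list rose and 3 fell in Ptger4+/+ cells, and 3 rose and 2 fell in cells labelled Ptger4-/-. The ADP/ATP carriers parted there: Slc25a5 rose by 0.84 and 1.02, while Slc25a4 gave -0.94 and -0.89. The inhibitor gene Atpif1 gave -0.38 and -0.51.

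Of 12 nuclear regulators of respiratory genes, 6 rose and 0 fell at 2 h in Ptger4+/+ cells, and 5 rose and 0 fell in cells labelled Ptger4-/-. Myc, a driver of growth, rose by 2.60 and 2.55, and Pprc1, a coactivator of nuclear respiratory factors, rose by 1.34 in Ptger4+/+ cells. With PGE2 at 24 h in Ptger4+/+ cells 5 fell and 0 rose, among them Myc by 0.57 and Gabpa by 0.72. Gabpa encodes the DNA-binding chain of the ETS factor whose motif was searched above. Between the genotypes 2 (16.7%) were higher, Myc by 0.53 and Gabpa by 0.68, a share near the 15.9% of all features. In cells labelled Ptger4-/- 0 genes of each of these 5 lists passed with PGE2 by limma's adjusted p. Of all features 0.00888% rose and 0.138% fell in that comparison, so a count of 0 is close to the share of all features. At an unadjusted p below 0.05 there were 2 carriers higher, and 1 gene lower in each of the TCA cycle, assembly factor and regulator lists.

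Some markers of B cells and of other splenic cells also passed. Of 11 B cell markers, 3 rose (27.3%) and 1 fell (9.09%) with PGE2 in Ptger4+/+ cells, where 9.11% of all features rose and 17.0% fell. Between the genotypes 1 was higher (9.09%) and 3 were lower (27.3%), where 15.9% and 11.0% of all features were. Cd79a, a signalling chain of the B cell receptor, had ratios of 0.92 and -1.18 in these comparisons, opposite in sign to most members, and -0.81 with PGE2 in cells labelled Ptger4-/-. Cd22, which restrains the receptor's signal, had ratios of 0.79 and -0.77. Spib, a B cell transcription factor, went with most members, at -0.60 and 0.99. With PGE2 in Ptger4+/+ cells, 0 of 10 T cell markers rose and 1 (10%) fell. There 2 of 8 markers of monocytes and macrophages (25%) and 1 of 7 of dendritic cells (14.3%) rose. For NK cells 0 of 7 and for neutrophils 0 of 6 markers passed. Of 6 red cell genes, 1 rose (16.7%) and 2 fell (33.3%). Between the genotypes 3 of the 8 markers of monocytes and macrophages were lower (37.5%) and 1 was higher (12.5%). One each of the NK cell (14.3%), neutrophil (16.7%) and dendritic cell (14.3%) markers was lower. Of the 6 red cell genes 2 were higher (33.3%), Tfrc at 1.06 and Hbb-b1 at 0.40, and 0 T cell markers passed. Tfrc also rose with anti-IgM at 2 h, by 1.93 in Ptger4+/+ cells and 2.46 in cells labelled Ptger4-/-. At 2 h, 2 B cell markers rose (18.2%) and 5 fell (45.5%) in either genotype. Of all features 9.71% rose and 11.4% fell in Ptger4+/+ cells, and 11.6% and 11.7% in cells labelled Ptger4-/-. In either genotype 2 T cell markers (20%), 1 of monocytes and macrophages (12.5%) and 1 of dendritic cells (14.3%) rose. Another dendritic cell marker fell in both. Of red cell genes 3 rose (50%) in Ptger4+/+ cells, and 2 rose (33.3%) and 1 fell in cells labelled Ptger4-/-. There 1 T cell and 1 neutrophil marker also fell. For NK cells 0 passed. The part of cell composition in the members' ratios was not tested, and in bulk RNA fewer cells of a type and less RNA per cell cannot be told apart.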

How the data were processed

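The measurements were 10 dye-swapped arrays of RNA from splenic B cells of mice. Deposited values were read as log2 ratios between channels, and how the authors normalised them is not given in the sources used here. Signs were set from the labelled dyes so that the treated or Ptger4-/- RNA was the numerator. Of 25344 probes, 21111 had 1 gene symbol, updated through RefSeq where old. Probes of a gene were averaged on each array, which gave 22533 features with the unnamed probes. Intensities were not analysed here, so no filter on dim probes was possible and no depth was known.

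All arrays entered 1 fit in limma 3.58.1 (R 4.3.3) with 5 comparison coefficients and a dye effect, leaving 4 residual degrees of freedom. In all 7 contrasts were tested, the 5 comparisons and the genotype differences of the anti-IgM and PGE2 responses, with Benjamini-Hochberg adjustment over all features. The fit was tested on simulated data with independent noise on each array. That test could not cover arrays of a pair that hold the same RNA extracts. The members and gene lists were chosen with earlier results of these data known. Named genes were up to 10 largest called rises and falls of each comparison, isoform pairs, every member whose response differed between genotypes, and from each pathway list 2 called genes of smallest p in each direction. Which of those list genes the text names was decided with their values known.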

Additional observations from a re-analysis of the deposited data

Results flagged for a closer look

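The response to anti-IgM or to PGE2 differed between genotypes for some members, by the test of the difference itself (limma, adjusted over all features). Values are the log2 response in cells labelled Ptger4-/- minus that in Ptger4+/+ cells. For anti-IgM at 2 h the difference was 1.13 for Atp5pb, 0.54 for Ndufs3 and -0.45 for Atp5c1.

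For PGE2 at 24 h the difference was positive for 29 members, each of which had fallen in Ptger4+/+ cells. In complex V it was 1.53 for Atp5pb, 1.01 for Atp5o, 0.80 for Atp5h, 0.68 for Atp5b, 0.62 for Atp5k, 0.56 for Atp5e, 0.54 for Atp5c1 and 0.38 for Atp5j. In complex II it was 1.37 for Sdhb and 0.34 for Sdhc. In complex III it was 1.04 for Uqcrb, 0.69 for Uqcrc1, 0.33 for Uqcrfs1 and 0.28 for Uqcr11, and for cytochrome c, Cycs, 0.78. In complex I it was 1.10 for Ndufs3, 0.80 for Ndufa5, 0.50 for Ndufb8, 0.47 for the assembly factor Ndufaf2, 0.42 for Ndufa7, 0.41 for Ndufa9, 0.37 for Ndufb4, 0.34 for Ndufc2 and 0.34 for Ndufb10. In complex IV it was 0.77 for Cox7c, 0.59 for Cox5b, 0.53 for Cox5a and 0.35 for Ndufa4. For Emc8, outside the complexes, it was 0.64. Adjusted p-values by limma ran from 0.00055 for Atp5pb to 0.049 for Ndufa4. Of the 29 differences, 14 passed whichever array was left out, and for the 3 of anti-IgM 0 did.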

How the results depend on the processing

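Each ratio already pairs the RNAs hybridised together on an array. Pairing between arrays was not possible because the labels carry no replicate numbers. Set against 29 and 33 members called with anti-IgM in Ptger4+/+ cells and cells labelled Ptger4-/-, 45 with PGE2 in Ptger4+/+ cells, 54 between the genotypes, 3 for the difference of anti-IgM responses and 29 for that of PGE2 responses, a required change of over 1.2-fold (limma's treat) left 6, 15, 18, 29, 0 and 12. Without the dye term 15 members were called with anti-IgM in Ptger4+/+ cells, 0 for the difference of anti-IgM responses and 15 for that of PGE2 responses. A limit of 0.01 left 15, 0 and 17 of these. Scaling the arrays to a common spread left 17 for the difference of PGE2 responses. With PGE2 in cells labelled Ptger4-/-, 0 members were called, but 1, Sdhc, was called with scaled arrays and 1 with single probes. Leaving out each array gave 19 to 31 and 22 to 36 calls with anti-IgM, 23 to 47 with PGE2 in Ptger4+/+ cells, 0 throughout with PGE2 in cells labelled Ptger4-/-, 32 to 57 between the genotypes, and 0 to 2 and 16 to 30 for the differences. The lone array of a pair was then assumed to vary like the others. Atp5g1 with PGE2 in Ptger4+/+ cells went from 0.38 to -0.36 without the second array and to 1.12 without the first. Of 1560 values of named genes under alternatives, 1353 kept direction and call, 201 lost the call, 5 gained it and 1 turned. Dropping calls whose arrays differed in sign or by more than 1, an alternative added after seeing the data, left 28, 33, 43, 0 and 54 calls in the 5 comparisons.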
